A study of Canis lupus familiaris with 23 samples.

Results

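The genes described here encode the proteasome, the enzymes that attach ubiquitin to proteins and the enzymes that take it off again. They were chosen by gene symbol alone: a symbol counted when it began with PSMA to PSMG, or with UBE2, or with UBA, USP or CUL followed by a digit. Where several probe sets carried the same symbol and no other, the brightest on average over all 23 samples stood for the gene. The rule found 93 of the 6540 genes that had such a probe set, and these 93 genes were covered by 159 probe sets. Of them, 37 were proteasome genes: 7 alpha and 5 beta subunits of the 20S core, 2 immunoproteasome subunits, 6 ATPases and 7 other subunits of the 19S cap, 5 assembly chaperones, and 5 activators or inhibitors. A further 53 belonged to the ubiquitin system, as 3 E1 activating enzymes, 18 E2 conjugating enzymes or E2-like partners, 27 USP deubiquitinases and 5 cullins. The last 3 genes matched by name only. PSMC3IP acts in recombination between homologous chromosomes, PSME3IP1 encodes a binding partner of the PSME3 activator, and USP6NL encodes a GTPase-activating protein. PSMB6, PSMB7, PSMB10, UBE2C, UBE2S, UBE2T, UBE2L6, UBA1 and USP18 were not analysed here.

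Ubiquitin is passed from an E1 to an E2 enzyme and then, with the help of a ligase such as the cullin complexes, to a target protein. A chain of ubiquitin on the target is read by the 19S cap, whose ATPases unfold the protein and feed it into the 20S barrel, where catalytic beta subunits cut it. Cells of the immune system, and other cells exposed to interferon-gamma, replace the catalytic subunits by immunoproteasome subunits, PSMB5 by PSMB8 and PSMB6 by PSMB9, and make the PA28 activator from PSME1 and PSME2, which changes the peptides offered on class I molecules.

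Expression was measured in dogs (Canis lupus familiaris) on Affymetrix canine arrays, and each value is a log2 expression value, so that a difference of 1 is a doubling of signal. The 23 samples were 15 primary osteosarcomas, taken at surgery before chemotherapy, 2 canine osteosarcoma cell lines (1 culture each, called cell line 1 and cell line 2 here), and normal kidney, liver and lymph node of dogs from a research colony, with 2 samples for each organ. Ages, breeds and treatments of the animals played no part in the grouping. The tumors were set against tissues of other kinds, since the organs did not include bone. The 2 samples of an organ are biological replicates and were not pooled, per the study's text, which does not say whether equal replicate numbers in different organs mark the same dog. Tests were made with limma, with adjustment over all 23836 probe sets, and a gene is called higher or lower when its adjusted p was under 0.01.

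The mean of 4 hepatocyte markers was at least 12.35 in liver and at most 6.64 elsewhere, although TTR, with 10.30 and 9.18 in liver, overlapped with tumors at 8.35 to 10.21. The mean of 3 kidney epithelium markers was at least 6.83 in kidney and at most 5.71 elsewhere, carried by CDH16, with 9.64 and 9.13 in kidney, while LRP2, with 5.83 and 4.95, overlapped with tumors at 5.07 to 5.73. The mean of the lymphocyte markers CD3D, CD3E and LCK was 8.75 and 9.80 in lymph node, 5.62 to 6.82 in tumors, 5.68 and 5.71 in the cell lines, and 5.61 to 6.16 in kidney and liver. Macrophage markers, 6 genes, stood at 7.69 to 10.1 in tumors and at 4.97 and 5.30 in the cell lines. Of 5 osteoblast markers, SPP1 was lower in the cell lines than in tumors, by -6.82 (limma adjusted p = 1.13e-06), and 4 were not called, among them COL1A1, with 13.18 and 12.39 in the cell lines. AURKA, the proliferation marker measured, was at 7.70 and 7.60 in the cell lines and at 3.77 to 6.65 in tumors. In 10 arrays the signal from the 5′ ends of the actin and Gapdh control transcripts was low: the log2 difference between 3′ and 5′ control signal was 3.15 to 6.45 there and at most 0.85 in all others. Low 5′ signal marked 7 tumors (1, 4, 7, 8, 10, 12 and 14) together with the first replicate of every organ, but neither cell line. The difference was 3.15 to 4.70 in those tumors and 5.45 to 6.45 in those organ arrays. Fits of the arrays with low 5′ signal alone therefore do not match tumors and organs for it.

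The immunoproteasome subunits PSMB8 and PSMB9 were highest in lymph node, intermediate in liver, and lower in tumors, and they had their lowest group means in the cell lines. PSMB8, which carries the chymotrypsin-like activity of the immunoproteasome, read 10.03 and 9.73 in the 2 lymph nodes, 8.16 and 6.87 in liver, 6.49 and 5.15 in kidney, and 3.65 and 4.29 in the cell lines. In the tumors it ran from 4.72 over a median of 6.20 to 7.59. All 15 tumors lay below both lymph nodes, 14 below both livers and all 15 above both cell lines, while both kidneys lay inside the range of the tumors. The difference between tumors and lymph node was -3.98 ± 0.60 (log2, SE, n = 15 and 2, limma adjusted p = 0.000141). PSMB9 read 11.06 and 11.42 in lymph node, 9.74 and 9.47 in liver, 8.32 and 8.05 in kidney, 6.16 and 7.78 in the cell lines, and 5.25 to 9.72 in tumors with a median of 8.08. Its 15 tumors also lay below both lymph nodes, with a difference of -3.33 ± 0.69 (limma adjusted p = 0.00324). Against liver the differences of PSMB8 and PSMB9 were -1.62 and -1.69 with adjusted p of 0.0826 and 0.116, and against kidney 0.08 and -0.27 with adjusted p of 0.971 and 0.903, so neither was called there, and the signs against kidney turned in the arrays with low 5′ signal alone (-0.24 and 0.17). The order of the group means was lymph node, liver, tumors, kidney and cell lines for PSMB8, and lymph node, liver, kidney, tumors and cell lines for PSMB9. Tumors and kidney, neighbours in this order, did not differ beyond their spread. Fewer cells that make a subunit and less of its RNA per cell cannot be told apart in bulk samples. The lymphocyte markers were high in lymph node alone, at 8.75 and 9.80, while the macrophage markers were at 8.48 and 9.39 in liver, 7.84 and 8.73 in lymph node and 5.79 and 6.60 in kidney, and their part in the result was not tested.

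**Figure D1:**
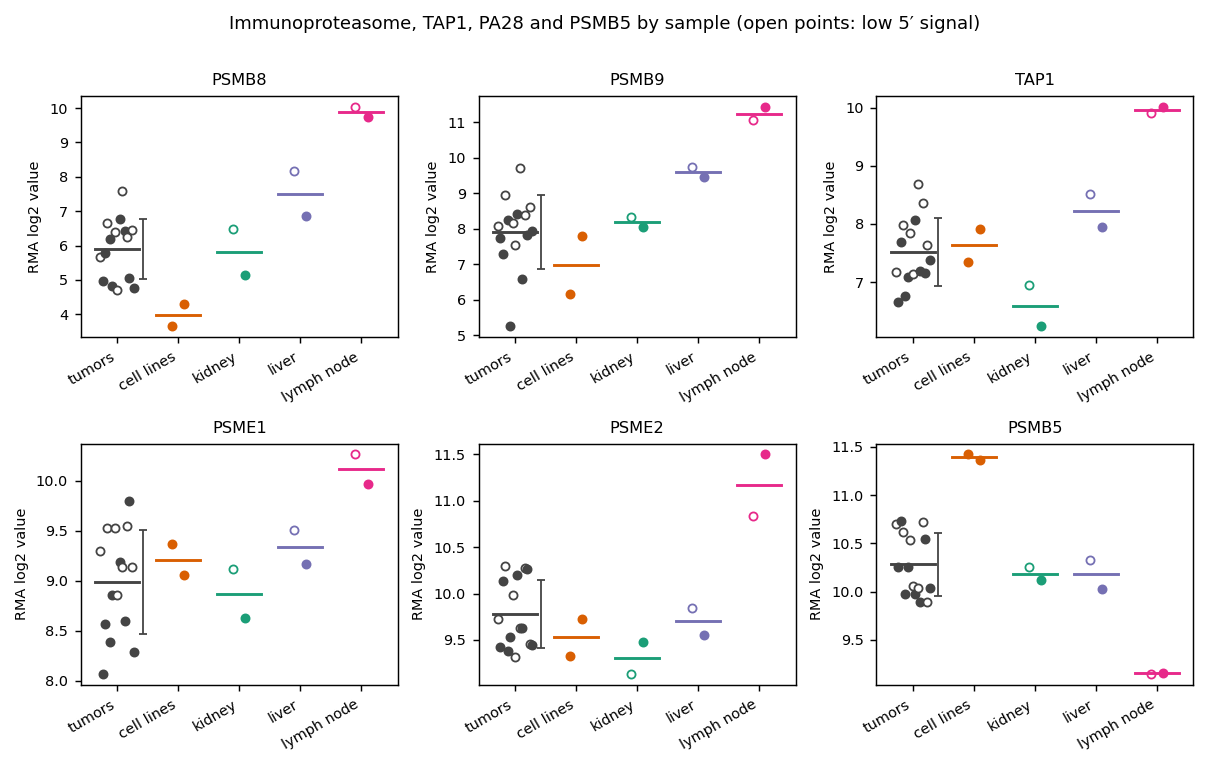
RMA log2 values (y axis) of PSMB8, PSMB9, TAP1, PSME1, PSME2 and PSMB5 in each of the 5 groups (x axis); a point is a sample, open where the 5′ signal was low, horizontal bars are group means, and the whiskers beside the tumors are 1 SD (n = 15). The 2 lymph nodes lie above all 15 tumors for PSMB8, PSMB9, TAP1, PSME1 and PSME2 and below all 15 for PSMB5, and the 2 cell lines lie below all tumors for PSMB8 and above all for PSMB5.

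The PA28 genes were highest in lymph node as well. PSME2, the beta subunit of PA28, read 10.84 and 11.50 in lymph node and 9.14 to 9.85 in kidney and liver. In tumors it ran from 9.32 over 9.63 to 10.30, and in the cell lines it was at 9.33 and 9.73. The difference between tumors and lymph node was -1.39 ± 0.26 (limma adjusted p = 0.00145). PSME1, the alpha subunit, read 10.26 and 9.97 in lymph node against 8.07 to 9.80 in tumors, with no overlap, but its difference of -1.13 ± 0.34 had an adjusted p of 0.0487 and was not called. UBA7, the E1 enzyme of the ubiquitin-like interferon product ISG15, followed the same order in lymph node and tumors, with 7.07 and 7.25 against 5.38 to 6.62 (difference -1.02 ± 0.21, limma adjusted p = 0.00294). It was also lower in tumors than in liver, where it read 6.98 and 6.96 (difference -0.83 ± 0.21, adjusted p = 0.00794).

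PSMB5, the constitutive subunit whose place PSMB8 takes, ran the other way. It read 9.15 and 9.16 in lymph node, 10.03 to 10.33 in kidney and liver, 9.89 to 10.74 in tumors with a median of 10.25, and 11.42 and 11.37 in the cell lines. All tumors lay above both lymph nodes and below both cell lines, without overlap. PSMB5 was 1.13 ± 0.22 higher in tumors than in lymph node (limma adjusted p = 0.00167) and 1.11 ± 0.22 higher in cell lines than in tumors (adjusted p = 0.00199). A second, dimmer probe set of PSMB5 gave 0.32 and 0.64 for the same differences, with adjusted p of 0.883 and 0.389, so the call rests on the brighter probe set.

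In all, 1 gene (PSMB5) of the 93 was higher in tumors than in lymph node and 5 were lower, namely PSMB8, PSMB9, PSME2, UBA7 and the deubiquitinase USP19. These shares of 1.08% and 5.38% stood beside 2.52% higher and 3.43% lower among all 6540 genes. USP19, which acts at the endoplasmic reticulum, read 7.11 and 7.72 in lymph node and 5.98 to 6.99 in tumors (difference -0.96 ± 0.23, adjusted p = 0.00931). The other probe sets of PSMB8 gave -3.69 and -4.11 for tumors against lymph node, with adjusted p of 9.24e-06 and 1.96e-08, and those of PSME2 gave -1.75 and -1.91 (0.00294 and 3.23e-08). With 2 lymph nodes, the calls other than that of PSMB8 depended on them. Without lymph node replicate 1 the adjusted p was 0.0412 for PSMB9, 0.0372 for PSMB5, 0.0302 for UBA7 and 0.0157 for USP19, and without replicate 2 it was 0.103, 0.051, 0.114 and 0.393, with 0.149 for PSME2 (difference -1.06). The call of USP19 also ended when either liver or any of the 11 tumors 1, 2, 3, 4, 5, 6, 9, 11, 12, 13 and 15 was left out, its largest adjusted p over all removals being 0.393. In the arrays with low 5′ signal alone PSMB8 differed by -3.78 (adjusted p = 0.068) and PSMB9 by -2.56 (0.111), and in the others by -4.14 (0.0102) and -4.02 (0.0541).

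Lymph node was also set against kidney and liver, a comparison that shares its lymph node samples with the one above. PSMB8 was 3.21 ± 0.69 higher in lymph node than in the mean of kidney and liver (limma adjusted p = 0.0028), and PSME2 was 1.66 ± 0.30 higher (0.00053). UBE2D2, an E2 enzyme that serves many ligases, was 1.49 ± 0.27 higher (0.000521), with 8.48 and 8.45 in lymph node against 6.73 to 7.23 in the other organs. CUL1, the scaffold of the SCF ligases, was 0.88 ± 0.19 higher (0.00226), and UBE2L3, an E2 that works with HECT and RBR ligases, was 0.74 ± 0.19 higher (0.00984). PSMB5 was lower by -1.03 ± 0.25 (0.00715). These were 5 higher and 1 lower of 93, or 5.38% and 1.08%, beside 5.2% and 6.7% of all genes. PSMB9 differed by 2.35 ± 0.79 and PSME1 by 1.01 ± 0.39, with adjusted p of 0.0554 and 0.107. When the replicate number was blocked among the 6 organ samples, 3 genes were called, PSMB8 (adjusted p = 0.00438), PSMB9 (0.00417) and the assembly chaperone PSMD9 (0.00954), while PSME2, UBE2D2, CUL1, UBE2L3 and PSMB5 had adjusted p from 0.0111 to 0.0267. Low 5′ signal fell on replicate 1 of each organ, so this block cannot be told apart from 5′ signal. The calls of the main fit depended on single samples. PSMB8 had an adjusted p of 0.0121 without kidney replicate 2, 0.0135 without liver replicate 2 and 0.0385 or 0.0306 without lymph node replicate 1 or 2. Without lymph node replicate 2 PSME2 had 0.0411. Without either lymph node the call of UBE2D2 (0.0101 and 0.0116) and that of CUL1 (0.0263 and 0.0341) ended, that of PSMB5 ended without any of the 6 organ samples (at most 0.0733), and that of UBE2L3 in 17 of 23 fits (at most 0.151), those without any organ sample, without either cell line or without tumor 1, 2, 6, 7, 8, 10, 11, 13 or 14. Other probe sets of UBE2D2 gave 0.68 and 0.09 and of UBE2L3 0.35, none of them called.

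On the RefSeq annotation of assembly UU_Cfam_GSD_1.0, PSMB8 and PSMB9 lie on chromosome 12 in the order TAP2, PSMB8, TAP1, PSMB9, with 0 protein-coding genes between neighbours, and PSME1 and PSME2 lie on chromosome 8 with 1 such gene between them. TAP1 and TAP2 encode the transporter that carries proteasome products to class I molecules. TAP1 read 9.91 and 10.01 in lymph node against 6.65 to 8.69 in tumors, a difference of -2.44 ± 0.39 (limma adjusted p = 0.000293). TAP2 differed by -1.08 ± 0.25 (0.00994). In all, 2 of the 7 class I and interferon genes measured (28.6%) were lower in tumors than in lymph node and 0 were higher, beside 3.43% and 2.52% of all genes, with a median of -0.83 beside -0.01 for all genes. B2M, the light chain of class I molecules, was lower in tumors than in the 6 organ samples, by -0.76 ± 0.16 (0.00302), and was lower still in the cell lines, at 10.47 and 9.67 against 11.78 to 12.997 in tumors (difference -2.17 ± 0.27, 2.79e-05). B2M was the 1 gene of these 7 called lower in the cell lines (14.3% beside 2.92% of all genes), and 0 were higher. The other 6 had positive differences, with a median of 0.41 over the 7 beside 0.10 for all genes. Of these, TAP1 differed by 0.115 and TAP2 by 0.62, and neither was called. Both cell lines had full 5′ signal. Between tumors of low and full 5′ signal, 3 of the 7 genes were called lower (42.9% beside 3.03% of all genes). These were PDIA3 by -3.70, CALR by -2.82 and IFNGR1 by -1.70. The part of 5′ signal in the positive differences of the cell lines was not tested.

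The constitutive proteasome was high in the cell lines. This comparison shares its tumors with those against the organs. Of the 25 constitutive core and cap subunits, 23 had their highest group mean in the cell lines, a share not computed for all genes. Between cell lines and tumors 23 had a positive difference, beside 3734 of all 6540 genes, with a median of 0.83 beside 0.10 for all genes. The limma test called 4 of the 25 higher (16%) and 0 lower, beside 5.84% and 2.92% of all genes. They were PSMA1, PSMA4, PSMB5 and PSMC6. Of the 25, 14 (56%) had an unadjusted p under 0.05, beside 34.8% of all genes. The 2 exceptions to the direction were PSMA2 and PSMC1, with -0.11 and -0.03. Over all 93 genes, 9 were called higher in the cell lines (9.68%) and 0 lower, beside 5.84% and 2.92% of all genes, and 38 (40.9%) had an unadjusted p under 0.05. Both cell lines lay above all 15 tumors for 24 of the 93 genes, or 25.8%, beside 11.3% of all genes, and below all tumors for 3, PSMB8, USP48 and USP54, or 3.23% beside 8.27%. The immunoproteasome ran against its class: PSMB8 differed by -1.93 ± 0.60 (adjusted p = 0.0361) and PSMB9 by -0.94 ± 0.69 (0.386), neither of them called. The other probe sets of PSMB8 gave -0.59 and -1.20 (adjusted p = 0.218 and 0.0743).

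**Figure D2:**
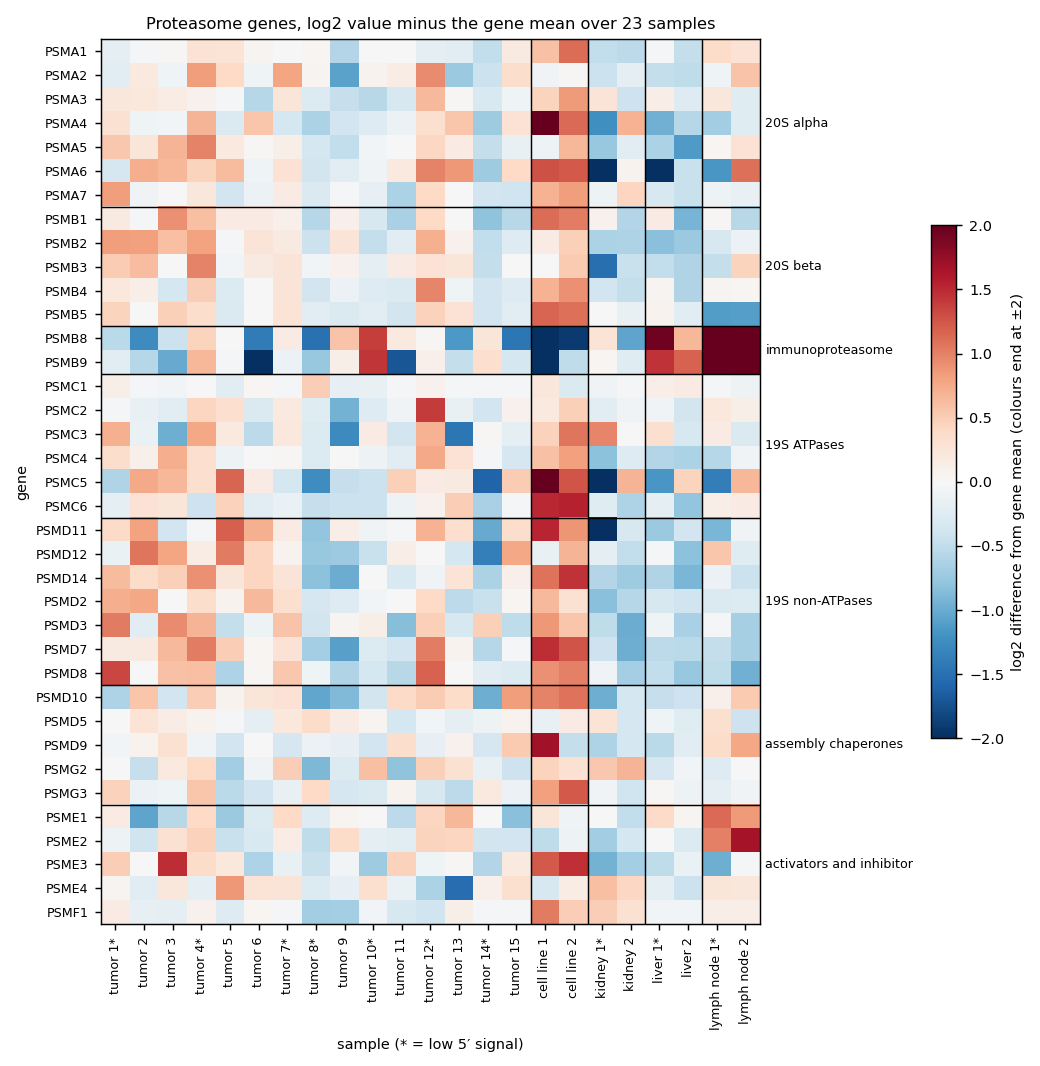
Each row is a proteasome gene and each column a sample; colours give log2 values centred on the gene's average over all 23 samples, with colours ending at ±2, and an asterisk marks low 5′ signal. The 2 cell lines are above the gene mean for most core and cap subunits, whereas PSMB8 and PSMB9 are above it in lymph node and liver and below it in the cell lines.

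PSMC6, an ATPase of the 19S base, read 5.63 and 5.66 in the cell lines against 3.47 to 4.61 in tumors with a median of 3.99 (difference 1.62 ± 0.24, limma adjusted p = 0.000208). Its mean in tumors, 4.02, was close to the 25th percentile of all probe sets, 3.98. This was the only call of the cell line comparison that held without either cell line and without any other sample, with a largest adjusted p of 0.00894. PSMA4, an alpha subunit of the core, read 11.77 and 10.90 against 9.05 to 10.45 (difference 1.58 ± 0.39, 0.00929). Its call ended in 18 of the 23 fits that left out a sample (either cell line, liver or lymph node, or tumor 1, 2, 3, 5, 7, 8, 9, 10, 11, 12, 14 or 15), with 1.15 (adjusted p = 0.218) without cell line 1 and 2.01 (0.0279) without cell line 2, and its other probe set differed by 0.79 (0.0385). PSMA1 read 10.51 and 11.05 against 9.34 to 10.22 (difference 0.91 ± 0.18, 0.00271) and without cell line 2 had 0.64 (0.132). PSMC5, another ATPase, had the largest difference of all proteasome genes, 1.65, and was not called (adjusted p = 0.106), as its tumors ranged from 5.64 to 8.41 and its normal samples from 5.03 to 7.93. Between tumors of low and full 5′ signal PSMC5 differed by -0.97, which was not called, and both cell lines had full 5′ signal.

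Outside the core and cap, PSMG3, a chaperone of core assembly, read 7.37 and 7.77 in the cell lines and 6.01 to 7.10 in tumors (difference 1.10 ± 0.24, limma adjusted p = 0.00404). PSMF1, which encodes the proteasome inhibitor PI31, read 10.02 and 9.49 against 8.29 to 9.15 (difference 0.93 ± 0.19, 0.00263). Neither gene's groups overlapped. PSMD10, which encodes the assembly chaperone gankyrin, differed by 1.07 ± 0.41 with an adjusted p of 0.0826. PSME3, the nuclear PA28 gamma activator, read 8.48 and 8.72 against 6.55 to 8.73, so that 14 of 15 tumors lay below both cell lines. PSME1 and PSME2 differed by 0.23 ± 0.34 and -0.25 ± 0.26 (0.706 and 0.558), with 95% intervals from -0.49 to 0.94 and from -0.80 to 0.29. In the arrays with full 5′ signal alone, to which both cell lines belong, the calls of PSMF1 (0.95, adjusted p = 0.0147), PSMA1 (0.89, 0.0228) and PSMA4 (1.51, 0.0107) ended. Without cell line 1 the adjusted p of PSMF1 was 0.128 and that of PSMG3 was 0.0227, and without cell line 2 that of PSMG3 was 0.114.

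Of the 53 ubiquitin genes, 2 were called higher in the cell lines and 0 lower, 3.77% and 0% beside 5.84% and 2.92% of all genes. Both were E2 genes. UBE2A, an E2 that acts with RAD18 and RNF20 ligases, read 9.29 and 10.79 against 7.01 to 8.68 in tumors (difference 2.20 ± 0.37, adjusted p = 0.000524), the largest difference of the 93 genes in this comparison, and 1.44 (0.0636) without cell line 2. UBE2V1, the E2-like partner of UBE2N, read 10.46 and 10.81 against 8.69 to 10.11 (difference 1.38 ± 0.31, 0.00508). PSMC3IP, the remaining called gene outside the proteasome, read 7.62 and 7.35 against 4.31 to 6.84 (difference 1.82 ± 0.40, 0.00458). Without cell line 1 the adjusted p was 0.0373 for UBE2V1, 0.0837 for PSMC3IP and 0.0399 for PSMB5, and without cell line 2 it was 0.106, 0.0448 and 0.0322. The E2 class had a median of 0.60 with 15 of 18 genes positive, and the deubiquitinases had a median of 0.11 with 15 of 27 positive and 0 called, and 10 (37%) had an unadjusted p under 0.05, near the 34.8% of all genes. USP16 and USP38 had the largest differences of the deubiquitinases, 2.07 and 1.85, with adjusted p of 0.0574 and 0.0106. Both cell lines had full 5′ signal, with which USP16 moved within the tumors, and against the tumors of full 5′ signal alone USP16 differed by 1.22 (0.0308). USP48 had the lowest difference, -0.95 (0.0183). UBA7 differed by -0.30 ± 0.21 (0.358). AURKA was higher and the macrophage markers CSF1R, CD68 and CD14 lower in the same cell lines, by 2.95, -4.71, -4.12 and -2.70, and the part of cell division or of other cell types in these differences was not tested.

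**Figure D3:**
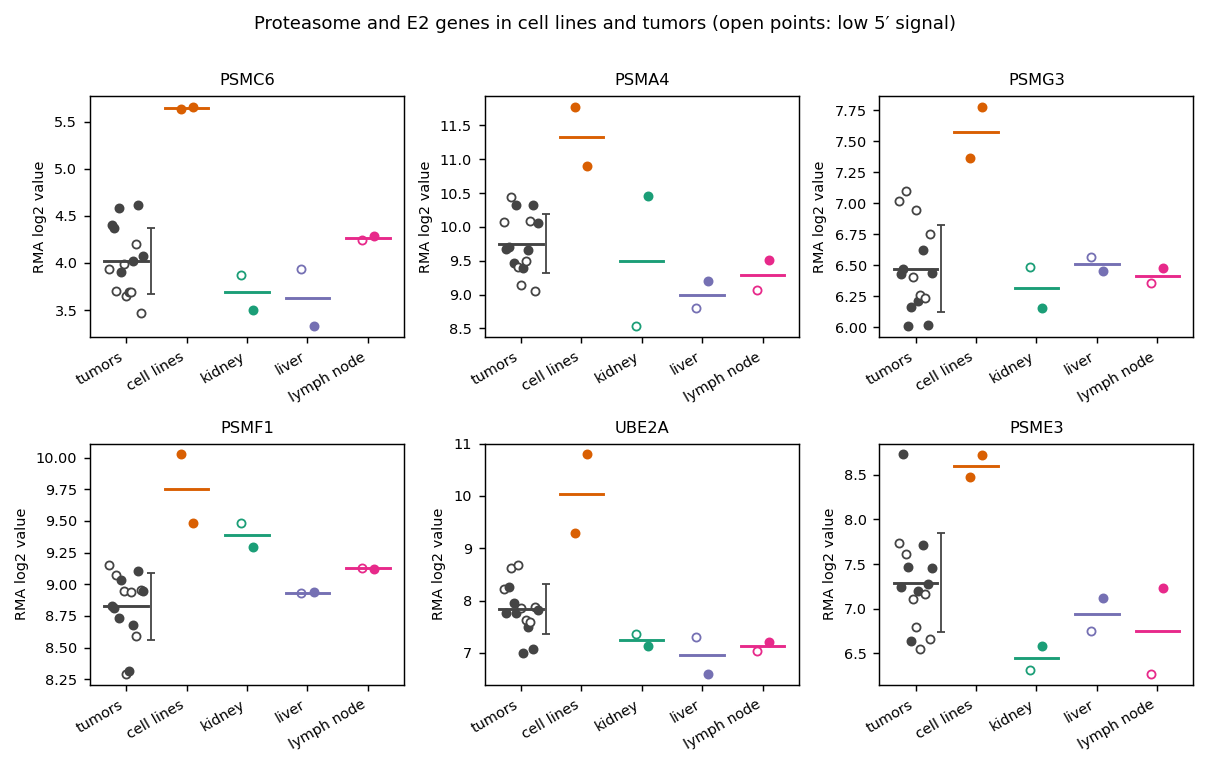
RMA log2 values (y axis) of PSMC6, PSMA4, PSMG3, PSMF1, UBE2A and PSME3 in each of the 5 groups (x axis); a point is a sample, open where the 5′ signal was low, bars are group means and whiskers 1 SD over the tumors (n = 15). Both cell lines lie above all 15 tumors for the first 5 genes, and 1 tumor reaches the cell lines for PSME3.

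The pathway genes outside the rule gave 3 calls in the cell lines that belong beside these. ADRM1, a ubiquitin receptor of the 19S cap, read 9.79 and 9.99 against 7.74 to 9.23 in tumors (difference 1.59 ± 0.26, limma adjusted p = 0.000439). COPS6, a subunit of the COP9 signalosome, which takes NEDD8 off cullins, was 1.38 ± 0.31 higher (0.00585). ANAPC10, a subunit of the anaphase-promoting complex, read 4.66 and 5.11 against 3.34 to 4.62 in tumors (difference 1.02 ± 0.24, 0.00723). Its mean in tumors, 3.86, was below the 25th percentile of all probe sets, 3.98. These 3 calls were 1 of 7 genes of other deubiquitinases and proteasome-bound proteins (14.3%) and 2 of 10 SCF and anaphase-promoting complex genes (20%). The share of all genes was 5.84%, and 0 genes of either list were lower. The 3 calls rest on the same 2 cell lines, and no fits that left out a sample are given for them. NFE2L1, a transcription factor known for proteasome genes, differed by -0.36 and was not called.

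Against the 6 normal organ samples as 1 group, few of the 93 genes differed in tumors. UBE2L3 was called higher, and USP19 and USP4 were called lower, which is 1.08% and 2.15% beside 4.74% and 4.51% of all genes. UBE2L3 read 8.37 to 9.08 in tumors with a median of 8.64, 7.82 and 7.69 in kidney, 8.003 and 7.97 in liver, and 8.52 and 8.71 in lymph node. The tumors lay above kidney and liver without overlap and overlapped with lymph node, and the difference from all 6 was 0.58 ± 0.14 (limma adjusted p = 0.00793). USP19 read 5.98 to 6.99 in tumors and 6.61 to 7.72 in the organs (difference -0.68 ± 0.15, 0.00401). USP4, a deubiquitinase that is a close relative of USP15 and USP11, read 6.81 to 7.54 against 7.52 to 7.97, with 14 of 15 tumors below every organ sample (difference -0.52 ± 0.11, 0.00416). With the replicate number of the organ samples as a random block, 0 of the 3 were called, with adjusted p of 0.0235 for UBE2L3, 0.0103 for USP19 and 0.0121 for USP4. The other probe sets of UBE2L3 and USP4 gave 0.12 and -0.03 (adjusted p = 0.801 and 0.965).

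The call of UBE2L3 ended in 12 of 21 fits that left out a sample, those without tumor 1, 2, 3, 4, 7, 8, 11 or 12 or without a kidney or a liver, with an adjusted p of at most 0.0279. USP19 lost its call without kidney replicate 2 (0.0153) and without lymph node replicate 2 (0.0113), and USP4 without kidney replicate 1 (0.0135) and without either lymph node (0.0119 and 0.0114). In the arrays with low 5′ signal alone USP19 differed by -0.32 (adjusted p = 0.433), and in the others by -1.03 (0.00534).

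By class, all 18 E2 genes had a positive difference, of which only that of UBE2L3 was called, with a median of 0.42 beside 0.02 for all genes, and so had all 7 non-ATPase subunits of the 19S cap (median 0.62) and all 5 constitutive beta subunits (median 0.44). Among all genes, 3445 of 6540 were positive. The E2 median was 0.675 against kidney and 0.588 against liver, but 0.064 against lymph node, where 7 of 18 were negative. In each organ the mean deviation of the E2 genes was lower in replicate 1, the array with low 5′ signal. Replicates 1 and 2 read -0.787 and -0.25 in kidney, -0.633 and -0.427 in liver, and -0.371 and 0.231 in lymph node. Between tumors of low and full 5′ signal the E2 median was -0.057, with 10 of 18 negative. The part of 5′ signal in the E2 direction was not tested. The non-ATPase and beta subunits had medians of 0.44 and 0.25 against lymph node, with 6 of 7 and 4 of 5 positive. Against the 6 organ samples limma called 0 of the 37 proteasome genes, and 16 (43.2%) had an unadjusted p under 0.05, beside 34.5% of all genes. PSMB8 and PSMB9 had the lowest differences of the 93 genes, -1.84 ± 0.57 and -1.76 ± 0.53, with adjusted p of 0.0392 and 0.0316, and UBA7 had -0.66 ± 0.16 (0.0104). PSMB5 differed by 0.44 ± 0.19 (0.125), PSME1 by -0.46 ± 0.25 (0.262) and PSME2 by -0.28 ± 0.26 (0.558). PSMF1 and PSMD10 differed by -0.32 ± 0.12 and 0.23 ± 0.28 (0.0839 and 0.668). The largest positive difference was that of UBA2, part of the E1 of SUMO, 1.66 ± 0.53 (0.0442). Its organ samples ranged from 3.40 to 7.66, and within each organ replicate 1, the array with low 5′ signal, was the lower. The list of genes outside the rule added UCHL1, a deubiquitinase known from neurons, with 6.63 to 10.80 in tumors against 5.42 to 6.89 in the organs (difference 2.62 ± 0.43, 0.000358).

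**Figure D4:**
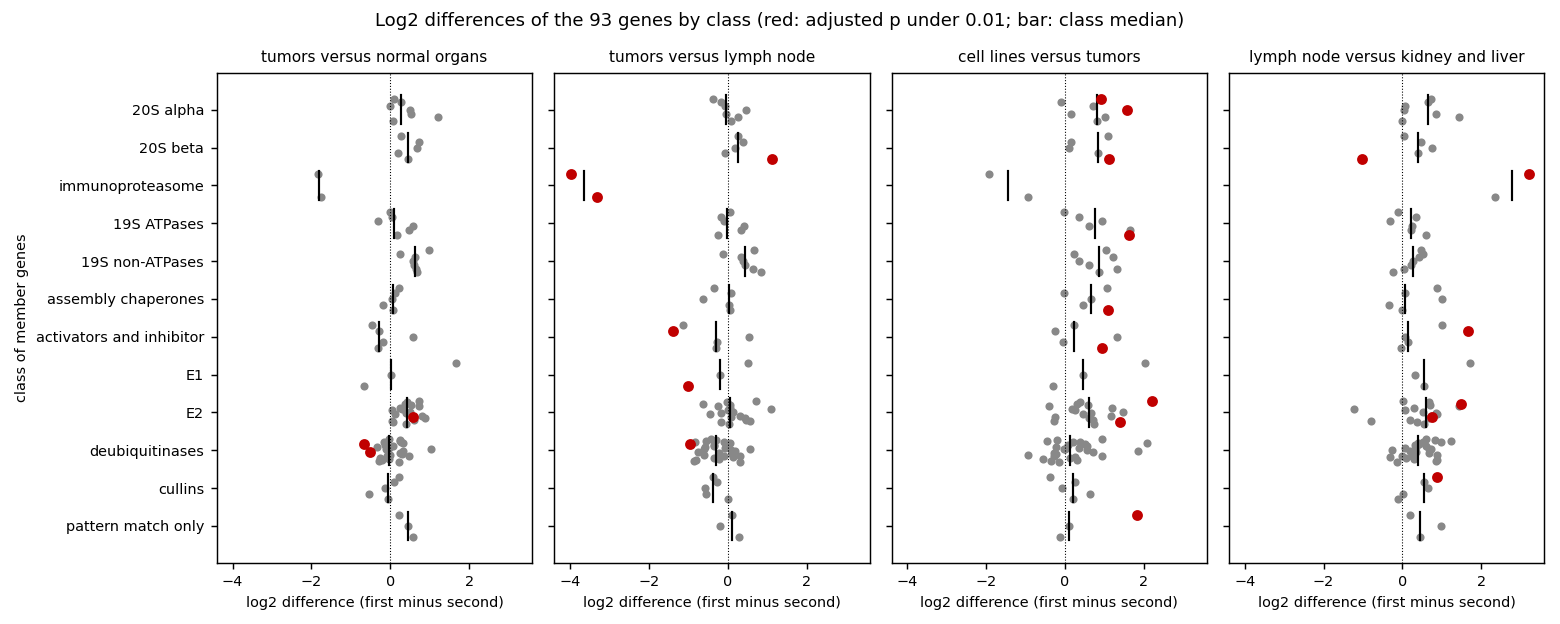
Log2 differences (x axis) of the 93 genes by class (y axis) in 4 comparisons; a point is a gene, red where its adjusted p was under 0.01, and a vertical bar is the class median. The 2 immunoproteasome genes lie at -3.98 and -3.33 for tumors versus lymph node, far from the other classes, and the core and cap classes lie right of 0 in the cell lines.

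Organ by organ the tumors differed in few of these genes. Against kidney 1 gene was higher and 0 were lower, 1.08% and 0% beside 3.65% and 7.19% of all genes, and 22 of the 93 (23.7%) had an unadjusted p under 0.05, beside 29.3% of all genes. That gene was UBE2L3, with 0.95 ± 0.16 (limma adjusted p = 0.000337, and 0.0172 without kidney replicate 2). The other probe set of UBE2L3 gave 0.385 against kidney (limma adjusted p = 0.656). PSMB5, PSME1 and PSME2 differed from kidney by 0.10, 0.11 and 0.47, none of them called. Against liver 3 genes were higher and 1 lower, 3.23% and 1.08% beside 6.09% and 7.72%. The higher genes were UBE2E1, an E2 of the class that holds UBE2E2 and UBE2E3, with 8.75 to 10.62 in tumors against 7.92 and 8.09 in liver (difference 1.54 ± 0.35, 0.00384), CUL1 with 0.82 ± 0.16 (0.00104) and UBE2L3 with 0.72 ± 0.16 (0.00394), and for each all 15 tumors lay above both livers. Without liver replicate 1 the adjusted p was 0.0798 for UBE2E1 and 0.0541 for UBE2L3, and without replicate 2 it was 0.0475, 0.0713 and, for CUL1, 0.0573. The lower gene was UBA7, described above, whose call ended in 14 of 23 such fits (without tumor 1, 2, 4, 5, 6, 7, 11 or 15, or without either cell line, liver or lymph node), with an adjusted p of at most 0.0983. For UBE2L3 the other probe set gave 0.09 against liver (limma adjusted p = 0.924), so its calls against kidney and liver rest on the brighter probe set. PSMB5, PSME1 and PSME2 differed from liver by 0.10, -0.36 and 0.08, none of them called.

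Within the 15 tumors the genes that varied most were UBE2N, PSMB9, USP16, UBA2 and PSMB8, with SDs of 1.06, 1.04, 1.0, 0.96 and 0.87, beside a median SD of 0.43 over the 93 genes. UBE2N and USP16 followed the 5′ signal of the arrays. UBE2N, the E2 that builds chains on lysine 63 of ubiquitin, ran from 6.07 over 6.97 to 7.57 in the 7 tumors with low 5′ signal and from 8.33 over 8.82 to 9.20 in the other 8, without overlap (difference -1.89 ± 0.20, limma adjusted p = 3.71e-05). USP16, which takes ubiquitin off histone H2A, ran from 3.67 to 4.77 and from 5.35 to 6.57 (difference -1.82 ± 0.18, 1.67e-05). UBE2D3, a close relative of UBE2D2, and USP6NL were lower by -1.44 ± 0.14 (1.59e-05) and -0.86 ± 0.09 (2.45e-05), also without overlap. These were 4 lower and 0 higher of 93, 4.3% and 0% beside 3.03% and 0.81% of all genes, and 26 of the 93 (28%) had an unadjusted p under 0.05, near the 25.9% of all genes. The calls held without any 1 tumor. UBE2N, USP16 and UBE2D3 were also lower in replicate 1 than in replicate 2 of each organ, as UBE2N was with 5.82 and 8.28 in kidney, 5.86 and 7.31 in liver and 5.60 and 9.38 in lymph node. USP6NL was so in kidney and lymph node, but in liver it read 4.31 and 3.85. PSMB8 and PSMB9 differed by 0.64 ± 0.41 and 1.09 ± 0.44 between the classes of tumors (adjusted p = 0.397 and 0.158), and PSMB5, PSME1 and PSME2 by 0.16, 0.57 and 0.06, none of them called.

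**Figure D5:**
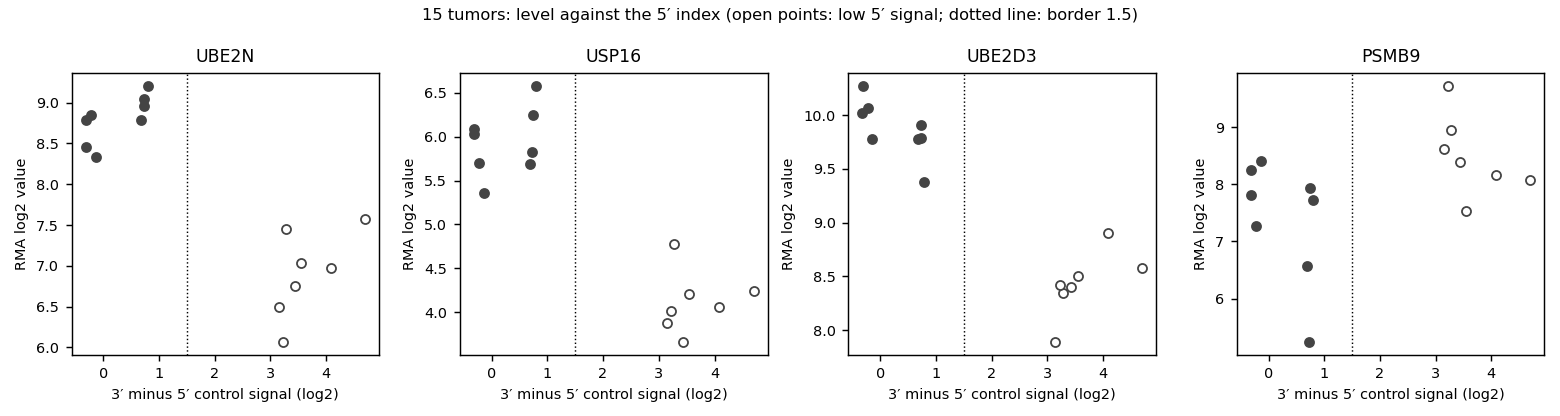
RMA log2 values (y axis) of UBE2N, USP16, UBE2D3 and PSMB9 in the 15 tumors against the log2 difference of 3′ and 5′ control signal (x axis); open points are tumors with low 5′ signal and the dotted line is the border of 1.5 between the classes. For the first 3 genes no tumor with low 5′ signal reaches the others, while the classes overlap for PSMB9.

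Whether tumors rich in PSMB9 were also rich in its partners was asked over the 15 tumors, in 5 relations. PSMB9 and PSMB8 had r = 0.628 and rho = 0.721 (two-sided permutation p = 0.0097 and 0.0034, adjusted 0.048 and 0.017). PSMB9 and TAP1 had r = 0.584 and rho = 0.646 (permutation p = 0.021 and 0.011, adjusted 0.053 and 0.027). Within the 7 tumors of low 5′ signal r was 0.947 for PSMB8 (exact permutation p = 0.0036, adjusted 0.018) and 0.817 for TAP1 (exact permutation p = 0.023, adjusted 0.059), and within the 8 others 0.313 and 0.174 (exact permutation p = 0.48 and 0.68, adjusted 1 for both). Without the 2 tumors farthest from the median of PSMB9, r was 0.374 for PSMB8 (permutation p = 0.21) and 0.448 for TAP1 (permutation p = 0.13), and rho 0.621 and 0.527 (permutation p = 0.028 and 0.068, adjusted 0.14 and 0.17). Over this narrower range the signs for PSMB8 and TAP1 stayed and no adjusted p passed 0.05. Leaving out tumors by their PSMB9 narrows its range and lowers n, so this cannot tell whether the relations rest on them. Over all 15 tumors with the 3′ minus 5′ control difference held constant, r was 0.596 for PSMB8 and 0.508 for TAP1 (adjusted permutation p = 0.084 and 0.13). PSME1, PSME2 and UBA7 had r of 0.336, 0.227 and 0.075 with PSMB9 and rho of 0.432, 0.332 and 0.089 (permutation p from 0.11 to 0.78, adjusted from 0.18 to 0.78). Tumor 10, with the highest PSMB8 and PSMB9 of the tumors, 7.59 and 9.72, also had the highest means of lymphocyte markers, 6.82, and of macrophage markers, 10.1, and their part in the relation was not tested.

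The subunits of the core moved together over the tumors more than the ubiquitin genes did, given here as a description. The median correlation between pairs of genes over the 15 tumors was 0.69 for the 5 constitutive beta subunits (from 0.51 to 0.80), 0.49 for the 7 alpha subunits, 0.53 for the 7 non-ATPase subunits of the cap and 0.13 for its 6 ATPases. It was 0.18 for the 18 E2 genes and -0.004 for the 27 deubiquitinases, where single pairs ran from -0.76 to 0.81. All pairs share the same arrays and the same normalization. Mean signal was 8.57 to 11.08 for the alpha and beta subunits and 3.69 to 9.57 for the deubiquitinases. The part of signal level in these correlations was not tested, and no such median was computed over all genes. Summed over the 25 constitutive subunits, the mean deviation from each gene's mean ran from -0.50 in tumor 14 to 0.53 in tumor 12, and was 0.77 and 0.83 in the cell lines, above every tumor, against -0.63 to -0.10 in the organ samples.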

How the data were processed

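Expression of 15 tumors, 2 cell lines and 6 organ samples was measured after one-cycle labelling on Affymetrix arrays of the first canine design. The authors normalized the arrays by RMA, and the submitters' processing notes also name affy. The deposited values are on the log2 scale, lie between 2.52 and 14.17 over 23913 probe sets, and were already quantile normalized, so changes in total RNA are not seen and dim differences are compressed. Software versions are not given in the sources used here. Arrays have no read depth; their number sets the precision.

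Here 77 control probe sets were left out. Symbols came from the platform annotation, which gave 10549 probe sets 1 symbol, 138 probe sets several and 13149 none, and 10046 of the 10549 had the same symbol in RefSeq. A further 5 probe sets with several symbols held a matching symbol and were not used. Of the 93 genes, 36 had several probe sets, and 5 (PSMC1, USP25, USP50, CUL2 and CUL9) had a mean under the 25th percentile of all probe sets, 3.98. The 93 genes followed from the symbol pattern alone. That pattern, the classes and the lists of markers and pathway genes were set with earlier results of these data known.

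Tests were two-sided moderated tests (limma 3.58.1 under R 4.3.3, lmFit with eBayes), with p adjusted by Benjamini-Hochberg over 23836 probe sets and a threshold of 0.01. Tumors and normal organs were compared in a fit of 21 samples, the other groups in a fit of all 23 with 5 group means, and the 5′ classes in the 15 tumors, with a border of 1.5 on the index. Intervals are 95%. Correlations used 100000 resamples, or all orders for fewer than 10 tumors (scipy 1.17.1, numpy 2.4.6, Python 3.11.15). The fits were tested on simulated data. Genes named in each comparison were PSMB5, PSMB8, PSMB9, PSME1 and PSME2, up to 6 called genes each way, UBA7, PSMF1 and PSMD10 in the comparisons of tumors with normal organs and cell lines, and the 5 genes of largest SD over tumors. PSMA1, PSMG3, PSMC5, PSME3, USP38, USP48 and the other names outside this rule were added after their values were seen. So were UBA2 and USP16 in the comparisons with organs and cell lines, since the rule named them for their SD over tumors.

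Whether replicate numbers pair organ samples was checked: deviations from the organ means correlated between the same numbers with r = 0.607 (kidney and liver), 0.596 (kidney and lymph node) and 0.530 (liver and lymph node), each above 0.1. This check cannot decide whether equal numbers mark the same dog. In each organ the low 5′ signal fell on replicate 1, so a block on replicate number cannot be told apart from one on 5′ signal. The block was used as an alternative only: the main fits carry no replicate term, and the blocked values stand beside the results they change. No 2 arrays held identical values. Alternatives were the threshold of 0.05, a filter on dim probe sets, the median of a gene's probe sets, a trended robust eBayes, median centring, the 5′ index as a covariate or each 5′ class alone, organ and replicate blocks, and each sample left out. Promoter motifs, sequences and genome positions beyond neighbouring genes were not analysed here.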

Additional observations from a re-analysis of the deposited data

Results flagged for a closer look

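The difference between tumors and normal tissue itself differed between organs for 6 of the 93 genes, 5.38% in the direction of higher lymph node values and 1.08% in the other, beside 5.2% and 6.7% of all genes. With the difference to kidney and liver set against the difference to lymph node, in the fit of all 23 samples, it was larger by 3.21 for PSMB8, 1.66 for PSME2, 1.495 for UBE2D2, 0.88 for CUL1 and 0.745 for UBE2L3, and differed by -1.03 for PSMB5. The tumors cancel in these values, which are the lymph node values minus the mean of kidney and liver given in the report, with the same adjusted p, and each rests on 2 lymph nodes.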

How the results depend on the processing

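Counts of called genes depended on threshold and samples. At an adjusted p under 0.05 they were 14 for tumors against normal organs, 5 against kidney, 12 against liver, 10 against lymph node, 24 for cell lines against tumors, 10 for lymph node against kidney and liver and 8 for the 5′ classes, in place of 3, 1, 4, 6, 9, 6 and 4. Leaving out 1 sample gave 2 to 5, 1 to 4, 0 to 5, 1 to 7, 3 to 11, 0 to 7 and 4 to 5 in the same order. Without cell line 1 or cell line 2 the count for cell lines was 3. Beside the counts of the 93 genes at 0.05, all 6540 genes gave 1162, 1079, 1347, 691, 1224, 1269 and 621 in the same order. The gain in calls at 0.05 was thus not particular to the 93 genes.

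Trended robust eBayes gave 1 against normal organs, 2 against liver and 3 for lymph node against kidney and liver. The median of a gene's probe sets gave 3 for lymph node and 8 for the 5′ classes. Without dim probe sets 2 genes were called against kidney. Arrays with low 5′ signal alone gave 1 against normal organs and 0 against liver, 0 against lymph node and 0 for lymph node against kidney and liver, and the others alone gave 1, 2, 1 and 1, in fits with fewer samples.

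Against normal organs, the organ as a random block (consensus correlation 0.351), the replicate block (0.131) and 1 averaged profile per organ each gave 0. For lymph node against kidney and liver, the 6 organ samples alone gave 1 and their replicate block 3. The replicate block gave 1, 4 and 6 against kidney, liver and lymph node, the counts without it.

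Of the values of single genes under all alternatives, 1734 kept their direction and their side of the threshold, 204 lost their call, 17 gained one and 15 changed sign. Signs that turned belonged to uncalled differences. Leaving out 1 sample, PSMB8 against kidney ran from -0.588 (without kidney replicate 2) to 0.745, with -0.042 without tumor 10, PSME1 against kidney from -0.128 (without kidney replicate 2) to 0.358, PSMB5 against liver from -0.044 and PSME2 against liver from -0.065 (both without liver replicate 2) to 0.251 and 0.223, PSME2 against normal organs from -0.463 to 0.009 (without lymph node replicate 2), and PSME2 between 5′ classes from -0.019 (without tumor 4; -0.015 without tumor 12) to 0.144. In low 5′ arrays PSMB8 against kidney was -0.244, PSMB9 against kidney 0.171 and PSME2 against liver -0.032. With the median of probe sets PSMB5 gave -0.27 against kidney and -0.033 against liver, and PSME2 -0.427 against liver and 0.487 in cell lines. The cause was not tested.

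The correlation of PSMB9 with PSMB8 was 0.313 in full 5′ tumors, 0.374 without the 2 tumors farthest from the median and 0.596 with the 5′ index held constant (adjusted p = 0.084), and that of PSMB9 with UBA7 turned to -0.137 without those 2 tumors.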

Other observations

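Of the ubiquitin-like genes outside the rule, SUMO2 read 9.997 to 10.84 in tumors, above both kidneys (7.85 and 9.96) and both livers (8.40 and 8.96), and was called higher against each, by 1.62 ± 0.35 and 1.85 ± 0.35 (limma adjusted p = 0.00326 and 0.000769). In lymph node it read 9.88 and 11.18, on either side of the tumors, and was lower in replicate 1 of each organ. FAU, which joins a ubiquitin-like protein to a ribosomal protein, was lower in tumors than in lymph node by -1.22 ± 0.21 (0.000533).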
